A study of Mus musculus with 6 samples.

Results

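The 4 Janus kinases and the 6 chains of the type II interferon, type I interferon and IL-10 receptors were examined in WT and RORγtN275D Th17 cells. These 10 genes were taken from the deposited expression table by their symbols, *Jak1*, *Jak2*, *Jak3*, *Tyk2*, *Ifngr1*, *Ifngr2*, *Ifnar1*, *Ifnar2*, *Il10ra* and *Il10rb*, and all 10 were found among its 16244 genes. The cells were naive mouse CD4+ T cells cultured for 3 days under pathogenic Th17 conditions with anti-CD3 and anti-CD28. WT donors were C57BL/6 mice, and donors of the other group carried the N275D substitution in the ligand-binding domain of RORγt, knocked in on a C57BL/6 background. Each genotype had 3 RNA-seq libraries. The number of donors behind a library and the zygosity of the knockin donors of these libraries were not given in the sources used here. The methods give different sources for the WT and knockin mice, and mention littermate controls for the transfer experiments. Unless the WT donors of these libraries were littermates, which was not given, source and genotype cannot be told apart. The labels give spleen as the tissue. The series text lists IL-6, IL-1β and IL-23 as the polarizing cytokines. The methods also list TGF-β and blocking antibodies against IL-4 and IFN-γ among the reagents of conventional Th17 cultures, which the pathogenic conditions extend, and whether these were present here was not settled by the sources.

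Cytokine receptors of this family have no enzymatic activity of their own. Their chains carry Janus kinases on the cytoplasmic side, and when the ligand brings the chains together the kinases phosphorylate the receptor and then STAT transcription factors, which move to the nucleus. IFN-γ binds IFNGR1, which carries JAK1, and recruits IFNGR2, which carries JAK2. Type I interferons bind IFNAR2, which carries JAK1, and IFNAR1, which carries TYK2, and act through STAT2 and IRF9. IL-10 binds IL10RA, which carries JAK1, and IL10RB, which carries TYK2, and acts mainly through STAT3, and IL10RB also serves the IL-22 and interferon lambda receptors. In T cells, IL-10 receptor signalling restrains Th17 responses and IFN-γ favours the Th1 program.

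The values of a library were whole multiples of 1 step, and their sums in units of that step, taken as the depth, were 17659035 to 18510878. The values are the authors' normalized read counts. Between genotypes, limma was fitted to log2(normalized reads + 1) over 11908 genes whose mean reached 10 normalized reads, and a gene was called at a Benjamini-Hochberg adjusted p under 0.05. A fold change on this scale is slightly understated for low genes. The exact two-sided permutation test on a single value has a smallest p of 0.1 in this design. Nothing in the labels says that the libraries of a genotype came from separate mice or cultures, so the p-values measure the spread between these libraries, which may be technical. WT replicate 3 stood apart from the other WT libraries. The median chi-square of its pairs with them, a squared difference, was 3.82 and 3.93 times that of counting noise. For the other pairs within a genotype it was 1.39 to 1.69 times. As a check of the labelled cell type, the 8 T cell and Th17 markers in the table summed to between 74734 and 78800 normalized reads in WT and between 86607 and 87335 in mutant libraries. Read counts do not show the substitution itself.

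All 6 receptor chains rose in RORγtN275D Th17 cells, while the kinases moved in different ways: *Jak2* fell, *Tyk2* rose, and *Jak1* and *Jak3* did not pass the test. By limma, 7 of the 10 genes were called higher and 1 lower, where 24.7% of all genes tested were called higher and 26.1% lower. Calls were thus common among all genes, with 50.9% called in either direction, and only *Il10ra* reached 2-fold, which 3.59% of all genes tested did (2.73% higher and 0.857% lower). The median log2 fold change was 0.45 over the 6 receptor chains and 0.0056 over the 4 kinases, beside -0.0026 over all genes tested. The 3 mutant libraries lay wholly above or wholly below the 3 WT libraries for 8 of the 10 genes, as they did for 57.7% of the genes tested, and wholly above for 7, as for 28.1% of the genes tested. In bulk libraries, a change in the RNA of each cell and a change in the share of cells that express a gene cannot be told apart.

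**Figure D1:**
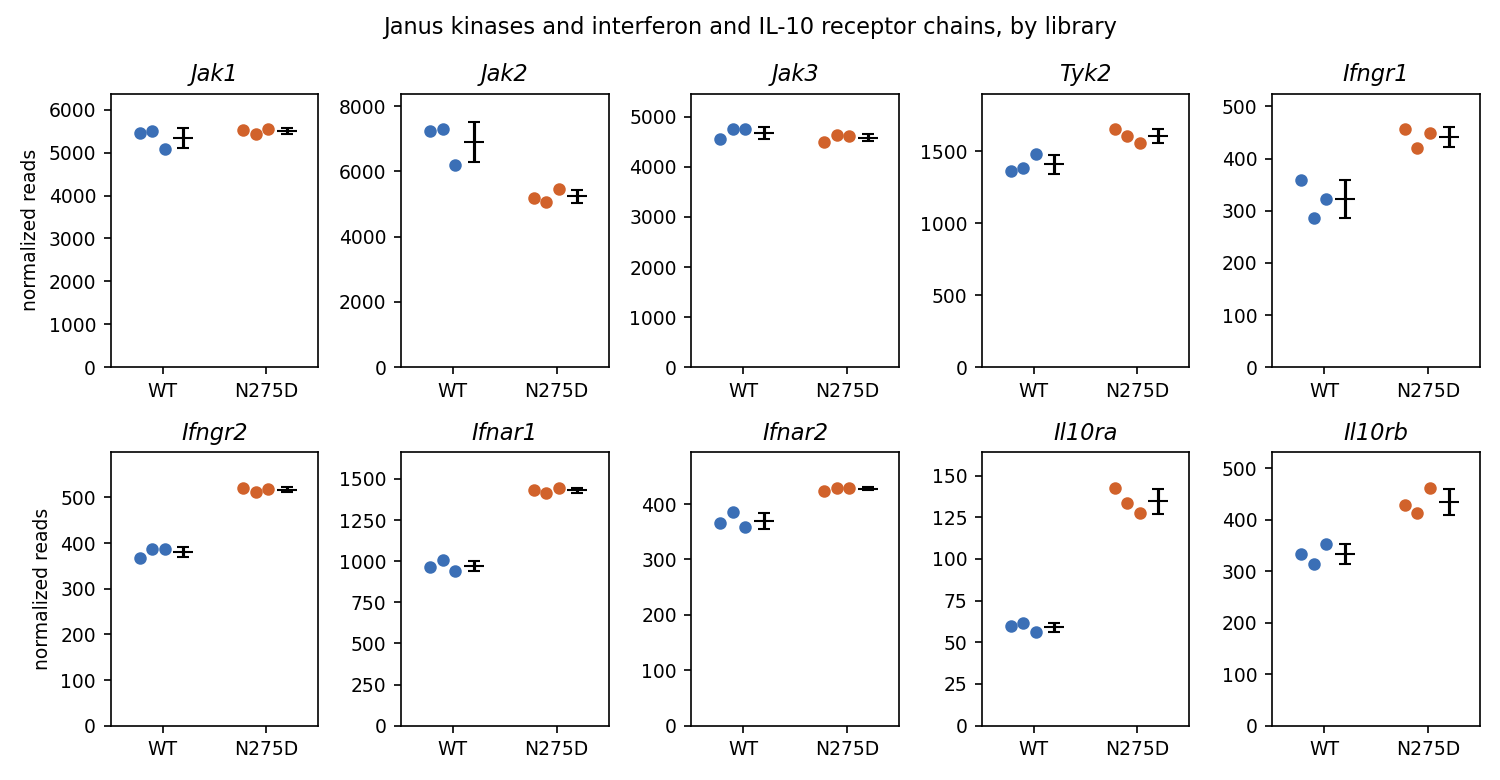
Normalized reads of the 10 genes (y axis, from 0) in each WT (blue) and RORγtN275D (orange) library, with the mean and SD of the 3 libraries in black. The 2 groups of points are separate for *Jak2*, *Tyk2* and all 6 receptor chains, and overlap for *Jak1* and *Jak3*.

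Both chains of the IFN-γ receptor were higher in mutant cells. *Ifngr1* encodes the ligand-binding chain. The 3 WT libraries held 358, 285 and 323 normalized reads, and the 3 RORγtN275D libraries 456, 420 and 448. The lowest mutant library thus lay above the highest WT library, and the WT libraries were the more scattered. The difference was 37.0%, or 0.46 ± 0.080 (SE) as a log2 ratio (limma adjusted p = 0.000177). For *Ifngr2*, which encodes the signal-transducing chain, the WT libraries held 367, 387 and 386 normalized reads and the mutant libraries 521, 511 and 517. Its libraries were tight in both genotypes and well apart. The difference was 35.8%, or 0.44 ± 0.060 (SE) as a log2 ratio (limma adjusted p = 1.57e-05). The ratio of *Ifngr1* to *Ifngr2* reads was 0.850 ± 0.120 in WT and 0.855 ± 0.0279 in mutant libraries (SD, n = 3 each), and the groups overlapped (log2 difference 0.018, exact two-sided permutation p = 0.9, adjusted p = 0.9 over 6 ratios). That difference ranged from -0.080, without WT replicate 2, to 0.12, without WT replicate 1, so its sign rests on single libraries.

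The type I interferon receptor was higher too, but unevenly between its chains. For *Ifnar1*, the chain that carries TYK2, the WT libraries held 963, 1007 and 942 normalized reads and the RORγtN275D libraries 1432, 1412 and 1447. The gap between the genotypes was wider than the spread within either. The difference was 47.3%, or 0.56 ± 0.046 (SE) as a log2 ratio (limma adjusted p = 7.11e-08). For *Ifnar2*, the chain that carries JAK1 and binds the ligand more tightly, the WT libraries held 365, 386 and 359 normalized reads and the mutant libraries 424, 428 and 430. The mutant libraries again lay above the WT libraries, by a smaller margin. The difference was 15.5%, or 0.21 ± 0.063 (SE) as a log2 ratio (limma adjusted p = 0.0113). The ratio of *Ifnar1* to *Ifnar2* reads went from 2.62 ± 0.0153 in WT to 3.35 ± 0.0439 in mutant libraries (SD, n = 3 each). The groups did not overlap, and the exact two-sided permutation p was 0.1, the smallest that 3 against 3 allows (adjusted p = 0.2 over 6 ratios).

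The IL-10 receptor showed the largest change of the 10 genes, in its ligand-binding chain *Il10ra*. *Il10ra* was the least abundant of them, at 59.5, 61.5 and 56.0 normalized reads in the WT libraries against 143, 133 and 127 in the RORγtN275D libraries. The groups were far apart, and the mutant libraries were the more scattered. The mean was 2.28-fold higher, or 1.17 ± 0.11 (SE) as a log2 ratio (limma adjusted p = 4.32e-07), which ranked 213 from the top among the 11908 genes tested. For *Il10rb*, the shared chain, the WT libraries held 333, 314 and 353 normalized reads and the mutant libraries 428, 413 and 462. Here too the genotypes did not overlap. The difference was 30.5%, or 0.38 ± 0.070 (SE) as a log2 ratio (limma adjusted p = 0.000287). The ratio of *Il10ra* to *Il10rb* reads was 0.178 ± 0.0187 in WT and 0.311 ± 0.0307 in mutant libraries (SD, n = 3 each), without overlap (log2 difference 0.79, exact two-sided permutation p = 0.1, adjusted p = 0.2 over 6 ratios).

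Among the kinases, *Jak2* was lower in mutant cells. It encodes the kinase that IFNGR2 carries, and it also serves the IL-12 and IL-23 receptors through the chains that pair with IL12RB1. The WT libraries held 7224, 7293 and 6187 normalized *Jak2* reads, and the RORγtN275D libraries 5184, 5059 and 5458. All mutant libraries lay below all WT libraries, and WT replicate 3 was the WT library nearest to them. The mean was 0.758 of the WT mean, or -0.40 ± 0.053 (SE) as a log2 ratio (limma adjusted p = 1.41e-05). Without WT replicate 3 the log2 fold change was -0.47. For *Tyk2*, the partner of IFNAR1 and IL10RB, the WT libraries held 1359, 1384 and 1480 normalized reads and the mutant libraries 1652, 1604 and 1556. It was called higher by a small margin, 14.0%, or 0.19 ± 0.047 (SE) as a log2 ratio (limma adjusted p = 0.00335), and WT replicate 3 again lay nearest to the mutant libraries.

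The remaining 2 kinases did not pass the test. *Jak1*, which serves all 3 receptors, stood at 5465, 5502 and 5074 normalized reads in the WT libraries and at 5537, 5426 and 5547 in the RORγtN275D libraries. The groups overlapped, and the log2 fold change was 0.042 (95% interval -0.039 to 0.12, adjusted p = 0.380 from limma). After quantile normalization, however, *Jak1* was called higher, at a log2 fold change of 0.14 (adjusted p = 0.0113 from limma). *Jak3* pairs with the common gamma chain and belongs to none of the 3 receptors. It stood at 4549, 4750 and 4753 normalized reads in the WT libraries and at 4502, 4636 and 4611 in the mutant libraries. The groups overlapped here too, with a log2 fold change of -0.031 (95% interval -0.11 to 0.046, adjusted p = 0.494 from limma), and under quantile normalization its sign was positive, at 0.068. *Jak3* shares 9.05% of its exonic bases with *Insl3* on the same strand, so a part of its reads could be split between them.

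**Figure D2:**
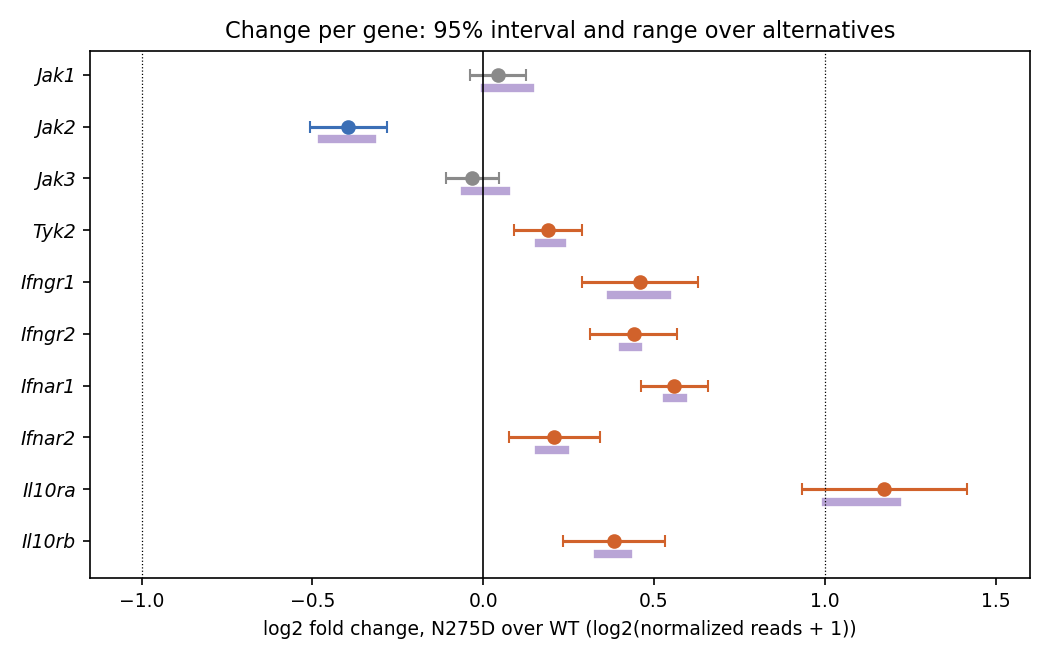
Log2 fold change of each gene, RORγtN275D over WT, with its 95% interval from limma (orange, called higher; blue, called lower; grey, not called). Purple bars below the points span the values under all alternatives tried, and dotted lines mark 2-fold. *Il10ra* alone lies past 2-fold, at 1.17, and *Jak2* alone is called lower, at -0.40.

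The ratio of *Jak1* to *Jak2* reads went from 0.777 ± 0.0373 in WT to 1.05 ± 0.0313 in mutant libraries (SD, n = 3 each). The groups did not overlap (log2 difference 0.44, exact two-sided permutation p = 0.1, adjusted p = 0.2 over 6 ratios). For *Jak1* to *Tyk2* the log2 difference was -0.15 and for *Jak1* to *Jak3* it was 0.074, each with overlapping groups and an exact permutation p of 0.2 (adjusted p = 0.24 over 6 ratios).

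To compare levels between genes, normalized reads were divided by the exonic length of each gene in kb, from the GENCODE annotation of the build the authors used. On this scale *Jak1*, *Jak2* and *Jak3* stood above every receptor chain in both genotypes, and *Tyk2* did not. In WT cells *Jak2* was highest, at 1372 ± 123 reads per kb, followed by *Jak1* at 1090 ± 48.3 and *Jak3* at 1049 ± 26.2 (SD, n = 3 each), and the libraries of the last 2 overlapped. *Tyk2* at 253 ± 11.5 and *Ifnar1* at 248 ± 8.45 reads per kb overlapped as well, as did *Il10rb* at 180 ± 10.5 and *Ifngr1* at 153 ± 17.2 (SD, n = 3 each). *Ifnar2* at 117 ± 4.57 and *Ifngr2* at 103 ± 3.01 came next, and *Il10ra* was lowest, at 16.9 ± 0.803 reads per kb. The order of the levels differed in mutant cells in 3 places. *Jak1* at 1122 ± 13.6 reads per kb stood above *Jak2* at 1041 ± 40.6, *Ifnar1* at 366 ± 4.53 stood above *Tyk2* at 288 ± 8.61, and *Ifngr2* at 139 ± 1.44 stood above *Ifnar2* at 135 ± 0.877 (SD, n = 3 each). In mutant libraries no neighbours in the order overlapped except *Jak2* and *Jak3*. *Il10ra*, at 38.5 ± 2.21 reads per kb, remained the lowest of the 10 genes.

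**Figure D3:**
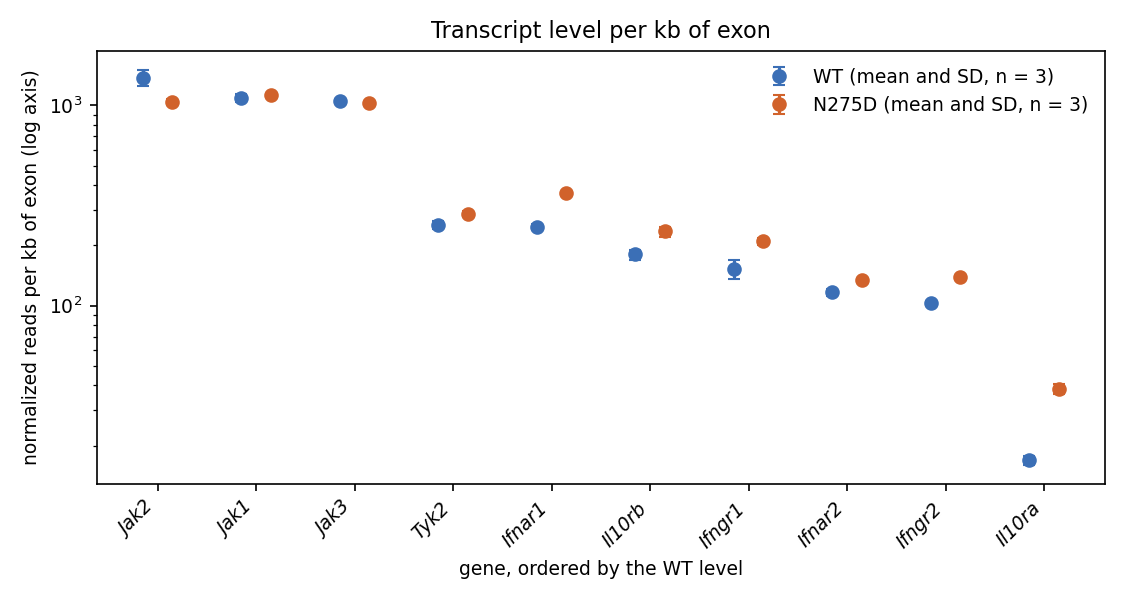
Normalized reads per kb of exon (log axis) for the 10 genes, ordered by their WT level, with the mean and SD of 3 libraries for WT (blue) and RORγtN275D (orange). The 3 highest genes are *Jak2*, *Jak1* and *Jak3* in both genotypes, and *Il10ra* is the lowest in both genotypes.

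Position in the genome set 4 of the receptor genes together. On GRCm38, *Ifnar2* (chr16:91372783-91405589), *Il10rb* (chr16:91406157-91425834), *Ifnar1* (chr16:91485032-91510523) and *Ifngr2* (chr16:91547059-91564007) lie on the plus strand within 191 kb, the class II cytokine receptor cluster. The other members are dispersed: *Ifngr1* at chr10:19591949-19610229, *Il10ra* at chr9:45253837-45269149, *Jak1* at chr4:101151974-101265282, *Jak2* at chr19:29251803-29313095, *Jak3* at chr8:71676383-71690577 and *Tyk2* at chr9:21104068-21131393. All 4 genes of the cluster were called higher, where 24.7% of all genes tested were, with log2 fold changes between 0.21 and 0.56. Genes whose lower coordinate, whatever their strand, lies within 250 kb of the member starts did not share one direction. Of 7 such neighbours tested, 2 were called higher and 2 lower, beside 24.7% and 26.1% of all genes tested. The other 3 were not called, and the median log2 fold change of the 7 was 0.0033. *Tmem50b*, the gene next to *Ifngr2*, had a log2 fold change of 0.36, and *Cryzl1* had 0.23. *Gart*, which encodes an enzyme of purine synthesis, had -0.41, and *Donson*, a replication fork gene, had -0.14. *Dnajc28*, *Son* and *Itsn1* were not called. In the annotation, the gene *Gm21970* shares exonic bases on the same strand with *Ifnar2* (9.92% of its exonic bases) and *Il10rb* (30.8%), so reads there could be split or left out, and how shared reads were counted was not given in the sources used here.

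**Figure D4:**
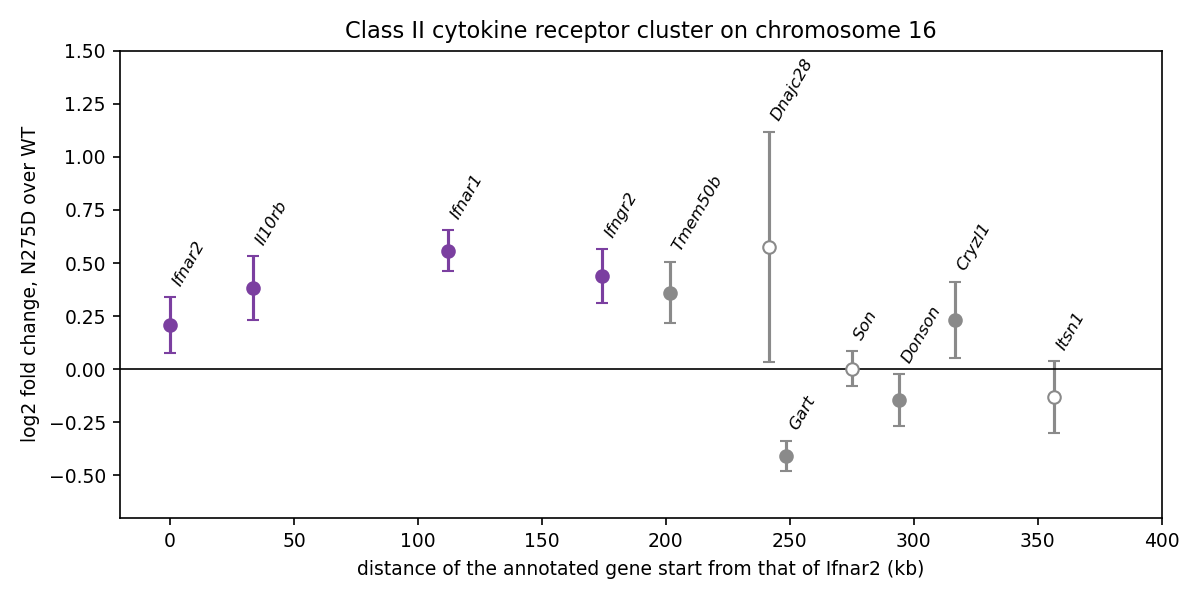
Log2 fold change, RORγtN275D over WT, with the 95% interval from limma, against the distance from *Ifnar2* in kb. Distance is between the lower coordinates of the genes, which for genes on the minus strand are their ends and not their starts. Receptor genes are purple, neighbours grey, and open points were not called. The 4 receptor genes lie between 0.21 and 0.56, and the neighbours to their right fall on both sides of 0, from *Gart* at -0.41 to *Dnajc28*, which was not called.

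The study picked *Ifngr1* among HIF-1 pathway genes with these libraries in view. It reported more mutant than WT RORγt bound at an *Ifngr1* promoter site. Neither primer listed for that site occurs in the bases printed here, so these bases are not shown to hold it. Printed are the bases before the start of *Ifngr1*, with those of *Ifngr2*, *Ifnar2* and *Jak2*. The annotated starts of all of these are also the outermost ones of their genes. The sequences are the 250 bases upstream of the RefSeq start on GRCm38.p6, 5′ to 3′ on the plus strand, and 8 of the 10 genes had an entry in the promoter table used. Capitals mark matches, on either strand, to the hypoxia response element cores ACGTG and GCGTG, the ROR half-site AGGTCA, the gamma-activated sequence TTCNNNGAA, the interferon-stimulated response element core (GAAA repeated after a gap of 2 bases) and the GC box GGGCGG.
Ifngr1, chr10:19591699-19591948: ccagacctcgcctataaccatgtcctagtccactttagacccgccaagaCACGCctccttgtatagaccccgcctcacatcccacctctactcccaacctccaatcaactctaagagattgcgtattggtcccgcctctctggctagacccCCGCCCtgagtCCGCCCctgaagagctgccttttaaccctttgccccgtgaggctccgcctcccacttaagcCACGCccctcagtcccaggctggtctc
Ifngr2, chr16:91546809-91547058: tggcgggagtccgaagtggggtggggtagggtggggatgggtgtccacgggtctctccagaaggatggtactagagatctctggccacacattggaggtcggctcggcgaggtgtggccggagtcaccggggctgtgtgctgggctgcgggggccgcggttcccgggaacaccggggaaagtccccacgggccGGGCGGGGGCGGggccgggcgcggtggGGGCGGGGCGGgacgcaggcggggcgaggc
Ifnar2, chr16:91372533-91372782: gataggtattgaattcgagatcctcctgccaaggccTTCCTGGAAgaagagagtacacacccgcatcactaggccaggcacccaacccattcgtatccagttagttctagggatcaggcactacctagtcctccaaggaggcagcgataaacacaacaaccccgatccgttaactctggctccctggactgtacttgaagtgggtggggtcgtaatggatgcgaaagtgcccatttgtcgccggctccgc
Jak2, chr19:29251553-29251802: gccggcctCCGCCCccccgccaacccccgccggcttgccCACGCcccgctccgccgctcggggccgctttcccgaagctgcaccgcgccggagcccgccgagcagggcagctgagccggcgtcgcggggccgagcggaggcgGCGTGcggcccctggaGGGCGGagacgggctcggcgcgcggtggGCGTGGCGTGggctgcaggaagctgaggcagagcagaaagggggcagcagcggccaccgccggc

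In these windows *Ifngr1* held 2 matches to GCGTG, the first at -201 from the start, and 2 GC boxes. *Jak2* held 4 matches to GCGTG and 2 GC boxes. Among the windows not printed, *Ifnar1* held 2 matches to GCGTG, and *Jak1* and *Tyk2* held 1 each. *Ifngr2*, *Ifnar2* and *Jak3* held no match to GCGTG. *Ifngr2* held 4 GC boxes, some of which overlap, and *Ifnar2* held 1 match to the gamma-activated sequence, at -214, and no GC box. None of the 8 windows held ACGTG, the ROR half-site or the interferon-stimulated response element core. These letters are common. They were counted in 27025 promoter windows of this length, 1 per gene, with 1 chromosome left out. GCGTG occurred in 28.2% of these and in 41.7% of those of genes in the expression table, and the GC box in 32.9% and 54.2%. The gamma-activated sequence occurred in 7.18% of the 27025 windows, ACGTG in 16.6%, the ROR half-site in 13.8% and the interferon-stimulated response element core in 3.04%.

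The ligands of these receptors that could be tested were higher in mutant cells as well. *Il10* averaged 46.3 ± 11.3 normalized reads over the WT libraries and 75.1 ± 5.11 over the mutant ones (SD, n = 3 each), for a log2 fold change of 0.71 (adjusted p = 0.00276 from limma). *Ifng* had a log2 fold change of 0.81, and *Il22*, whose receptor uses IL10RB, had 0.36. The type I interferon genes *Ifnb1* and *Ifna4* were at 0 in every WT library and averaged 0.666 and 0.334 normalized reads in mutant libraries, too few to test. *Ifnl2* and *Ifnl3* were not analysed here.

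The table also held 19 chains of other receptors that signal through these kinases or use IL10RB, though not every such chain carries a kinase itself. Of these, 16 could be tested, and 9 were called higher and 6 lower, where 24.7% and 26.1% of all genes tested were. *Il7r* (1.34), *Il12rb2* (1.26) and *Il9r* (1.06) had the largest positive log2 fold changes, and *Osmr* (-0.66), *Il27ra* (-0.42) and *Il6ra* (-0.36) the largest negative ones. *Il12rb2*, which carries JAK2, rose in the cells in which *Jak2* fell, whereas *Il12rb1*, which carries TYK2, fell (-0.30). *Il15ra* alone of those tested was not called. *Il23r* was counted both in this list and among the T cell and Th17 markers. *Ifnlr1*, which pairs with IL10RB for interferon lambda, had 7.28 ± 4.78 and 11.0 ± 5.56 normalized reads (SD, n = 3 each) and was below the level for testing on average, as were *Il20ra* and *Lifr*.

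The genes of the STAT factors and IRF9 moved in both directions. Of 8 genes tested, 5 were called higher and 2 lower, beside 24.7% and 26.1% of all genes tested, and *Stat6* was not called. *Stat2* and *Irf9*, which belong to the type I interferon complex, rose, *Stat2* from 434 ± 15.2 to 587 ± 19.2 and *Irf9* from 388 ± 10.1 to 559 ± 15.7 (normalized reads, SD, n = 3 each), which are log2 fold changes of 0.44 and 0.53. *Stat4* (0.84) had the largest positive value of the list, and *Stat5a* (-0.22) was among those called lower. The IL-10 effector *Stat3* was called higher at 0.22.

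Of 21 inhibitors and other regulators of the pathway, 6 were called higher, 5 lower and 10 not called. Thus 52.4% were called, close to the 50.9% of all genes tested. *Usp18*, which blocks JAK1 at IFNAR2, had a log2 fold change of 1.07 on few reads, from 9.03 ± 3.71 to 19.3 ± 2.99 (SD, n = 3 each). *Socs3* (0.96) and *Socs2* (0.51) were the next largest positive values, and *Socs1*, an inhibitor of IFN-γ receptor signalling, was called higher at 0.38. The adaptor *Sh2b3* (-0.39) and the phosphatases *Ptpn11* (-0.28) and *Ptpn6* (-0.26) were called lower.

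Genes that respond to these receptors were counted last. Of 19 IFN-γ response genes tested, 5 were called higher, 2 lower and 12 not called, so that 36.8% were called where 50.9% of all genes were, and their median log2 fold change was 0.045. *Cxcl10* (0.96), *Gbp7* (0.65) and *Irgm1* (0.47) had the largest positive values, while *Cd274* (-0.29) and *Nlrc5* (-0.18) were called lower. *Irf1*, a transcription factor induced by IFN-γ, had 591 ± 42.2 and 571 ± 18.9 normalized reads (SD, n = 3 each) and was not called (adjusted p = 0.565 from limma). Of 14 type I interferon response genes tested, 10 were called higher and 2 lower, beside the same 24.7% and 26.1%, with a median of 0.69. *Ifit1* averaged 33.7 ± 3.84 normalized reads in WT and 151 ± 10.1 in mutant libraries (SD, n = 3 each; log2 fold change 2.14, limma adjusted p = 2.17e-09), followed by *Ifit3* (1.71) and *Oasl1* (1.52). *Oas1a* (-0.60) and *Ifih1* (-0.35) were called lower, and *Ifit2* and *Bst2* were not called. The difference between the 2 response lists was not tested, and the lists were written with earlier results of these data known.

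**Figure D5:**
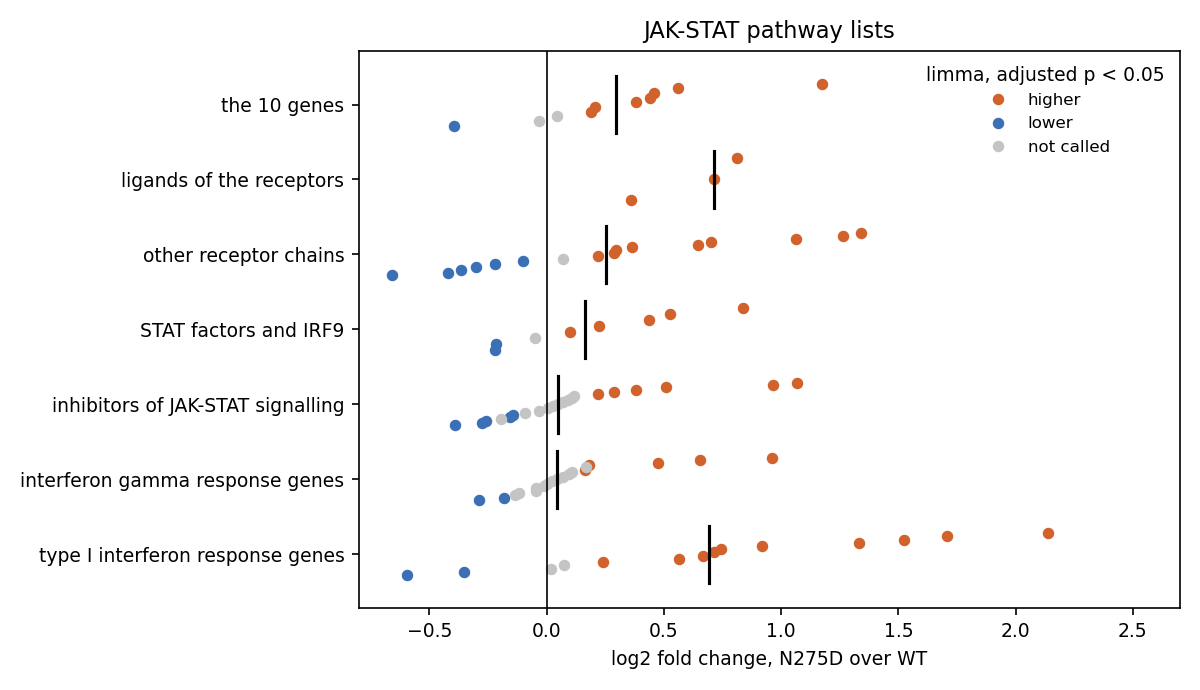
Log2 fold change, RORγtN275D over WT, of each tested gene (points) of the 10 genes and of 6 JAK-STAT lists, with the list median as a black bar. Orange points were called higher, blue lower and grey not called. The median is 0.69 for type I interferon response genes and 0.045 for IFN-γ response genes.

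Some marker transcripts of other cell types, in which these receptors are also expressed, differed between the genotypes, although the naive CD4+ T cells had been isolated by negative selection, a step meant to remove such cells. The 6 B cell markers summed to between 1117 and 1155 normalized reads in WT and between 1687 and 1754 in mutant libraries, mostly *Ebf1*. Of the 5 tested, 4 were called higher, where 24.7% of all genes tested were called higher and 26.1% lower. Without *Ebf1* the other 5 markers summed to between 150 and 160 in WT and between 214 and 273 in mutant libraries, and *Ms4a1* averaged 0.336 and 5.96. The 6 myeloid markers summed to between 89.8 and 108 and between 105 and 130, which overlapped, with *Csf1r* at 1.01 and 2.99 on average, and of 3 tested *Cd14* was called higher and *Adgre1* lower. The 5 CD8 T and natural killer markers in the table summed to between 201 and 216 in WT and between 284 and 325 in mutant libraries. Of 4 tested, 3 were called higher, beside the same 24.7%, and *Cd8a* was not called. *Klrb1c* was at 0 in all mutant libraries. The part of these transcripts in the receptor results was not tested.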

How the data were processed

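RNA was measured in 3 WT and 3 RORγtN275D libraries, grouped and numbered by their labels. According to the methods, reads were trimmed, mapped by the authors with STAR to the mm10 build and assigned to genes with featureCounts, with DESeq2 for their own normalization and tests, and versions were not given in the sources used here. The deposited values are the authors' normalized read counts (treated as a signal); 100% of values per library were whole multiples of 1 step, within 1e-06, as reads divided by a size factor would be, and the depth given is the sum in units of that step. The deposited table also holds the authors' log2 fold changes, q-values, group averages and transcript numbers (scores here), which were not used.

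The main fit was limma (version 3.58.1, R 4.3.3) with a trended prior (12.0 degrees of freedom) on log2(normalized reads + 1), for genes whose mean reached 10 and with no block, checked on simulated data. Ratios were compared with exact permutation tests. Gene lists and the rule for named genes (all 10 members and, per list, up to 3 called genes with the largest change in each direction, genes left out of a small count, and neighbours within 250 kb) were written by hand. *Stat3*, *Socs1*, *Irf1* and *Il12rb1* were named for their roles after their values were seen. Members and lists were chosen with earlier results of these data known. RefSeq (GRCm38.p6) gave coordinates for 16135 of 16244 genes by gene number, and GENCODE M21 gave exonic lengths. The planned count tests were not run, since 4 of the 6 steps lie too near 1 for the unit check used here to accept the multiples as reads. Some genes of the lists are not reported here by name.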

Additional observations from a re-analysis of the deposited data

How the results depend on the processing

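Pseudocounts of 0.1 and 10, other filters, TMM and quantile scaling, limma without a trend, the replicate number as a block and each library left out in turn were tried. Each of the 8 called genes kept its direction and its call in every alternative that tested it; *Il10ra* is below a minimum mean of 100 and drops out there. *Jak1* was called only after quantile normalization. At 2-fold, 1 of the 10 genes passed, and of 81 JAK-STAT list genes tested 8 passed higher and 0 lower. Over all genes tested, 2.73% passed higher and 0.857% lower. Some of the 8 had few reads, with WT means of 9.03 for *Usp18*, 7.63 for *Ifit3*, 13.0 for *Oasl1* and 30.7 for *Il9r*. In all, 427 genes passed at 2-fold. That count was 259 with a pseudocount of 10, 703 with all genes with a mean above 0 and 162 with a minimum mean of 100. Of the 2-fold calls, 76.1% were higher in mutant cells, and 61.4% after quantile normalization. Over libraries left out, the log2 difference of the *Ifngr1* to *Ifngr2* ratio ranged from -0.080 to 0.12. Deviations of same-numbered libraries correlated at -0.045, 0.041 and -0.083, and those of the other pairs at -0.054 to 0.089. With 3 libraries per genotype, such weak values cannot show whether same-numbered libraries shared a mouse or culture. With the replicate block, 8 of the 10 genes were called and 5727 genes in all, and the block changed no call of the 10. The planned edgeR and DESeq2 fits were not run. Counting error limits *Il10ra* most, with 59.0 ± 2.81 normalized reads in WT (SD, n = 3).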
